A study of Mus musculus with 10 samples.

Results

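Transcript levels of 9 clock transcription factor genes were described in mouse liver with and without Fbp1, the gene of fructose bisphosphatase, an enzyme of glucose production. The 9 genes were Arntl, Clock and Npas2, which encode the activators of the circadian clock, Nr1d1 and Nr1d2, which encode the REV-ERB repressors, and Dbp, Tef, Hlf and Nfil3, which encode factors that bind the D-box. They were taken by symbol from the 53392 genes of the count table, and each symbol matched 1 gene. Livers of 10 mice on the C57BL/6 background, aged 24 weeks, had been snap-frozen and sequenced: 5 wild type (WT, replicates 1 to 5) and 5 with a hepatic Fbp1 deficiency (Fbp1-deleted, replicates 6 to 10). No treatment other than the genotype was labelled, and the sources used here do not give the allele, the promoter driving any recombinase, the sex of the mice, the feeding state or the hour at which the livers were taken.

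The circadian clock of liver cells is a loop of transcription. ARNTL (BMAL1) pairs with CLOCK or its relative NPAS2, binds E-box sequences and switches on the genes of its own repressors, the PER and CRY proteins, together with the REV-ERB genes and Dbp, Tef and Hlf. REV-ERB proteins bind ROR response elements (RORE), where they repress Arntl, Clock, Npas2 and Nfil3, and where the ROR receptors activate. DBP, TEF and HLF, the PAR bZIP activators, and NFIL3, a repressor, compete for the D-box. In liver the transcripts of the activator limb and of Nfil3 peak at another time of day than those of Nr1d1 and Dbp.

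The members' starts were searched for these binding sequences, because the genes share regulators by background knowledge. RefSeq promoter windows (GRCm38.p6, 250 bases before to 50 bases after a start) were present for all 9 genes, 13 windows in all. Both strands were searched for the E-box CACGTG, for AGGTCA, the core of a RORE, and for the D-box as TTATGNAA. The RORE core stood in windows of 4 of the 9 genes, against 18.1% of all 27025 genes with windows. The E-box stood in windows of 1 of the 9, Tef, against 8.09% of all genes. TTATGNAA was not in these windows, against 3.99% of all genes. The matches did not overlap each other, and a match is a run of letters, not a shown binding site. The 30 bases around each match are printed on the gene's strand, with the match in capitals:
Arntl, RORE core, chr7:113207530-113207559: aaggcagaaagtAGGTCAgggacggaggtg
Clock, RORE core on the opposite strand, chr5:76303604-76303633: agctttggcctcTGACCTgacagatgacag
Nr1d2, RORE core, chr14:18239166-18239195: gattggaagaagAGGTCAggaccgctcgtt
Nfil3, RORE core on the opposite strand, chr13:52981034-52981063: ggcgctcggaacTGACCTactaacacacat
Tef, E-box of the first window, chr15:81802534-81802563: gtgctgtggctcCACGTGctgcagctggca
Tef, E-box of the second window, chr15:81811264-81811293: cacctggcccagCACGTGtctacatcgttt
Counting the first transcribed base as 1 and the base before it as -1, the Arntl match lay at 32 to 37 of its start at 113207511. The Nfil3 match lay at -12 to -7 and the Nr1d2 match at -77 to -72. The Clock match lay at -119 to -114 of a start inside the gene, at 76303502. The Tef matches lay at -127 to -122 and -138 to -133 of starts at 81802673 and 81811414, so both of its windows held an E-box before the start.

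Levels are given as counts-per-million (CPM) scaled by TMM factors, as mean ± SD of the 5 livers of a group. Each change is a log2 ratio of Fbp1-deleted to WT liver, given with its standard error (SE), from edgeR's quasi-likelihood test with Benjamini-Hochberg adjustment over all 15392 genes tested and a threshold of 0.05. Libraries held between 17778395 and 23894812 counts. Fbp1 itself stood at 909.6 ± 119 CPM in WT and 9.39 ± 2.38 CPM in Fbp1-deleted liver, so each library matched its label. Of the 9 members 8 passed the filter on low counts, and 2 of them rose and 2 fell, against 20.6% of all genes tested (10.6% higher and 10% lower). Arntl and Clock rose, Dbp and Tef fell, and Nr1d1, Nr1d2, Hlf and Nfil3 did not pass the test. The median change of the 8 tested members was -0.24, beside 0.01 over all genes tested. The balance of calls over all genes moved with the scaling, from 1636 higher and 1542 lower with TMM to 1266 and 1878 with upper quartile factors and 1190 and 1965 with library totals, and all 4 member calls held under both. Of the 9 genes 6 overlap another annotated gene, so reads there could be shared. The genes overlapping Arntl, Npas2 and Tef were given at most 8 counts in any library.

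**Figure D1:**
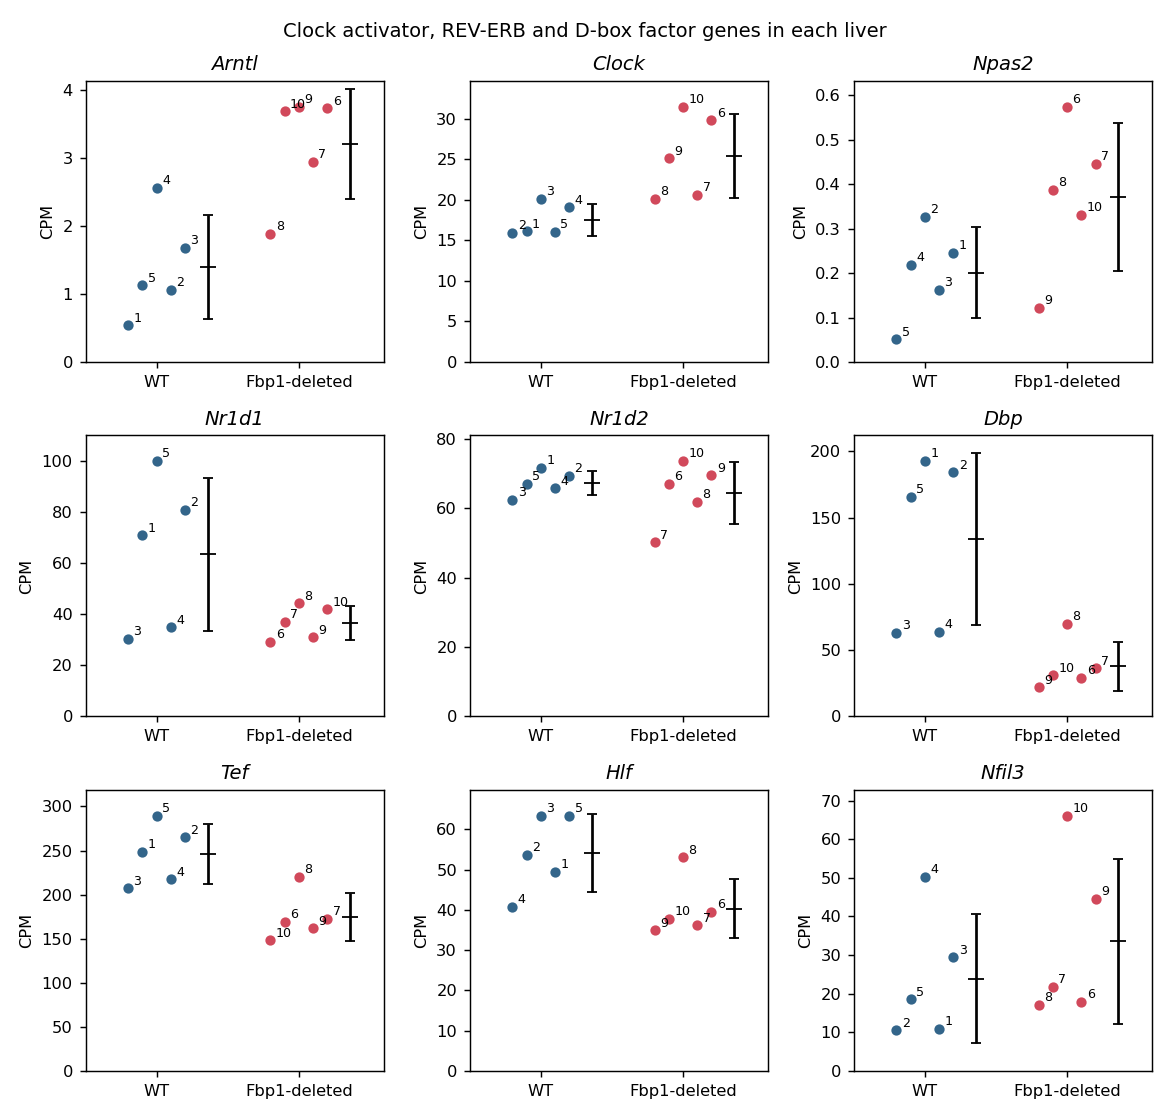
CPM of each of the 9 genes (y axis, from 0) in WT (blue) and Fbp1-deleted (red) livers, 1 point per liver with its replicate number, and mean ± SD in black. Dbp stands at 166 CPM or more in WT replicates 1, 2 and 5, at 62.9 and 63.7 in replicates 3 and 4, and at 70.1 or less in the Fbp1-deleted livers.

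Arntl, which encodes the partner of CLOCK and NPAS2, was scarce in all livers. The gene (ENSMUSG00000055116.8, GRCm38 chromosome 7, 113207465 to 113314126, plus strand) read 0.541, 1.06, 1.68, 2.57 and 1.13 CPM in WT replicates 1 to 5. It read 3.74, 2.95, 1.89, 3.76 and 3.69 CPM in Fbp1-deleted replicates 6 to 10. Of the Fbp1-deleted livers 4 lay above every WT liver, and replicate 8 lay between WT replicates 3 and 4. The group means were 1.40 ± 0.769 and 3.21 ± 0.809 CPM (SD, n = 5 each), a change of 1.20 (SE 0.35, adjusted p = 0.0271, edgeR), or 2.30-fold higher. Only 11 to 47 counts per WT liver and 39 to 78 per Fbp1-deleted liver stand behind these values. The call was lost in each of the 5 fits lacking a liver among WT replicates 2 and 5 and Fbp1-deleted replicates 6, 9 and 10, with adjusted p between 0.0574 and 0.0699 and a change between 1.12 and 1.14.

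Clock encodes the partner of ARNTL, and its transcript was more even between livers. The gene (ENSMUSG00000029238.11, chromosome 5, 76209868 to 76304792, minus strand) read 16.1, 15.9, 20.1, 19.1 and 16.1 CPM in WT replicates 1 to 5. It read 29.8, 20.6, 20.1, 25.1 and 31.5 CPM in Fbp1-deleted replicates 6 to 10. Replicate 8 was again the one Fbp1-deleted liver inside the WT range, just under WT replicate 3. Means of 17.5 ± 1.98 and 25.4 ± 5.20 CPM gave a change of 0.54 (SE 0.14, adjusted p = 0.0151, edgeR), 1.46-fold higher, and the call was kept with each library left out in turn (adjusted p at most 0.0472). Clock overlaps Ube2n-ps1, a processed pseudogene, on the same strand. Ube2n-ps1 read 5.07 ± 0.823 CPM in WT and 6.55 ± 1.36 CPM in Fbp1-deleted liver (0.37, SE 0.18, adjusted p = 0.167, edgeR).

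Npas2, the relative of Clock known chiefly from the forebrain, was barely detected and was removed by the filter. The gene (ENSMUSG00000026077.15, chromosome 1, 39193731 to 39363236, plus strand) held 5, 8, 3, 4 and 1 counts in WT replicates 1 to 5 and 12, 8, 8, 2 and 6 in Fbp1-deleted replicates 6 to 10. The livers of the groups overlapped at this depth. Without the filter its change was 0.85 (SE 0.62, adjusted p = 0.467, edgeR), and DESeq2 gave 0.89 (SE 0.65, adjusted p = 0.362).

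Nr1d1 encodes REV-ERB alpha, a repressor of Arntl. The gene (ENSMUSG00000020889.11, chromosome 11, 98767932 to 98775333, minus strand) read 70.9, 80.8, 30.4, 34.9 and 99.9 CPM in WT replicates 1 to 5. It read 29.1, 36.9, 44.3, 30.9 and 42.0 CPM in Fbp1-deleted replicates 6 to 10. WT livers stood at 2 levels: replicates 1, 2 and 5 lay above all Fbp1-deleted livers, and replicates 3 and 4 lay among them. Means were 63.4 ± 29.97 and 36.7 ± 6.64 CPM, and the change of -0.79 (SE 0.32, unadjusted p = 0.031, adjusted p = 0.104, edgeR) did not pass. DESeq2 called it (-0.78, adjusted p = 0.0274), and so did edgeR without WT replicate 3 (-0.97, adjusted p = 0.0294) or WT replicate 4 (-0.94, adjusted p = 0.0450). Nr1d1 overlaps Thra, the thyroid hormone receptor gene, on the opposite strand, and this library type does not mark strand. Thra read 17.2 ± 2.81 CPM in WT and 13.7 ± 6.08 CPM in Fbp1-deleted liver, with a change of -0.32 (SE 0.25, adjusted p = 0.399).

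Nr1d2, which encodes REV-ERB beta, was the steadiest of the 9 genes in WT liver. The gene (ENSMUSG00000021775.11, chromosome 14, 18204054 to 18239127, minus strand) read 71.7, 69.5, 62.6, 65.8 and 67.2 CPM in WT replicates 1 to 5 and 67.2, 50.2, 61.9, 69.5 and 73.7 CPM in Fbp1-deleted replicates 6 to 10. The SD was 5.20% of the mean in WT, where that of Nr1d1 was 47.3%. The difference was -0.06 (SE 0.11, adjusted p = 0.713, edgeR), and with Fbp1-deleted replicate 7 left out it was 0.018. Whether the changes of Nr1d1 and Nr1d2 differ from each other was not tested.

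Dbp, a direct E-box target of ARNTL and CLOCK and the member with the widest daily swing by background knowledge, had the largest fitted change of the 8 tested members. The gene (ENSMUSG00000059824.12, chromosome 7, 45705088 to 45710203, plus strand) read 193, 184, 62.9, 63.7 and 166 CPM in WT replicates 1 to 5. It read 29.0, 36.4, 70.1, 21.97 and 31.0 CPM in Fbp1-deleted replicates 6 to 10. The WT livers parted as for Nr1d1, and 4 of the 5 Fbp1-deleted livers lay below the lowest WT liver, with replicate 8 above WT replicates 3 and 4. Means were 134 ± 65.1 and 37.7 ± 18.8 CPM, a change of -1.83 (SE 0.44, adjusted p = 0.0189, edgeR), or 3.55-fold lower. Without Fbp1-deleted replicate 6 the change was -1.74 and adjusted p = 0.0510. Dbp overlaps Sphk2, a sphingosine kinase gene, on the opposite strand. Sphk2 read 63.6 ± 9.20 CPM in WT and 54.8 ± 3.90 CPM in Fbp1-deleted liver (-0.22, SE 0.11, adjusted p = 0.171).

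Tef, the second PAR bZIP gene, was the one of the 3 that kept a call with any library left out. The gene (ENSMUSG00000022389.15, chromosome 15, 81802421 to 81826863, plus strand) read 249, 265, 207, 217 and 289.7 CPM in WT replicates 1 to 5. It read 169, 173, 220.2, 162 and 148 CPM in Fbp1-deleted replicates 6 to 10. As for Dbp, WT replicates 3 and 4 were the lowest of their group, with replicate 8 again the one Fbp1-deleted liver inside the WT range. Means were 245.6 ± 34.03 and 174 ± 27.3 CPM, a change of -0.49 (SE 0.13, adjusted p = 0.0149, edgeR), 1.41-fold lower. The highest adjusted p of those fits was 0.0433.

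Hlf, the third PAR bZIP gene, lay at the threshold. The gene (ENSMUSG00000003949.16, chromosome 11, 90336536 to 90390895, minus strand) read 49.4, 53.7, 63.4, 40.8 and 63.3 CPM in WT replicates 1 to 5 and 39.5, 36.2, 53.0, 35.0 and 37.7 CPM in Fbp1-deleted replicates 6 to 10. Here WT replicate 3 was the highest of its group, so for Hlf replicates 3 and 4 were not the lowest pair, as they were for Dbp and Tef. The change was -0.43 (SE 0.14, adjusted p = 0.0509, edgeR). It passed under 5 of the 9 other settings that kept all libraries (adjusted p between 0.0272 and 0.0479), without WT replicate 4 (0.0190) and without Fbp1-deleted replicate 8 (-0.54, adjusted p = 0.00828).

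Nfil3, the repressor of D-box genes, had the largest SD relative to its mean of the 9 genes in WT liver (69.6%). The gene (ENSMUSG00000056749.7, chromosome 13, 52967209 to 52981073, minus strand) read 10.8, 10.5, 29.4, 50.3 and 18.5 CPM in WT replicates 1 to 5. It read 17.9, 21.7, 17.2, 44.6 and 66.1 CPM in Fbp1-deleted replicates 6 to 10. The livers with the most Nfil3 were Fbp1-deleted replicates 10 and 9 and WT replicate 4. The ranges overlapped widely, 10.5 to 50.3 CPM in WT and 17.2 to 66.1 CPM in Fbp1-deleted liver. WT replicates 1 and 2 lay below every Fbp1-deleted liver. The largest value was 4.79 times the smallest in WT and 3.85 times in Fbp1-deleted liver. The change of 0.49 (SE 0.56, adjusted p = 0.585, edgeR) was smaller than its error and was 0.08 without Fbp1-deleted replicate 10 and 0.95 without WT replicate 4.

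**Figure D2:**
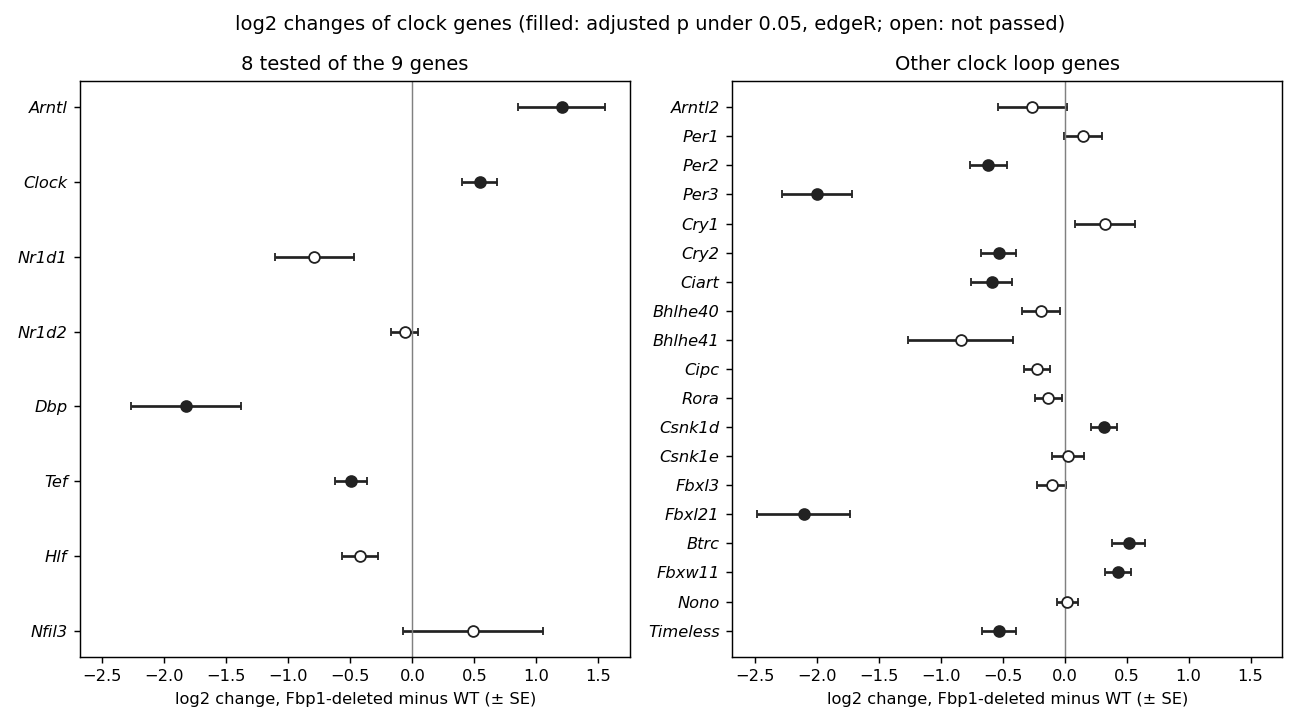
log2 ratio of Fbp1-deleted to WT with its standard error (bars) for the 8 tested members (left) and other tested clock loop genes (right); filled points passed adjusted p under 0.05 in edgeR. Arntl (1.20) and Clock (0.54) lie right of 0 and Dbp (-1.83) and Tef (-0.49) left of it.

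The same livers stood at the ends of the range for most members. Within WT, replicates 3 and 4 held the lowest pair of values for 4 genes, Nr1d1, Nr1d2, Dbp and Tef, and the highest pair for 3 others, Arntl, Clock and Nfil3. That made 7 of the 9 members, with Npas2 and Hlf as the exceptions. Within the Fbp1-deleted group, replicate 8 was highest for Nr1d1, Dbp, Tef and Hlf and lowest for Arntl, Clock and Nfil3, again 7 of 9. Among the 21 other clock loop genes the same was true of 13 for the WT pair and of 10 for Fbp1-deleted replicate 8. The 13 include Rorb, which held at most 6 counts in any library and was not tested. In a group of 5, rank alone puts any given liver highest or lowest for a large share of genes. The count of 10 therefore does not show by itself that the pattern recurs. This pattern was seen in the data and not tested, and the labels give no reason to set these livers apart. Its share over all genes was not counted, so it is not shown to be particular to clock genes.

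Separation of the groups was counted with and without Fbp1-deleted replicate 8. With all livers, 0 of the 9 members had groups that did not overlap, against 13.5% of all genes tested. Without replicate 8, 5 members did, Arntl and Clock above WT and Dbp, Tef and Hlf below it, against 22.1% of all genes tested. Nr1d1, Nr1d2 and Nfil3 still overlapped. No other liver was left out in such a count, and WT livers also made the overlap. For Arntl, WT replicate 4 alone (2.57 CPM) lay above replicate 8 (1.89 CPM). For Clock, WT replicate 3 alone (20.15 CPM) lay above it (20.12 CPM). Replicate 8 was picked for its place in the members' own values, so the count of 5 follows in part from that choice. It cannot be weighed against the share over all genes. In Fbp1 itself replicate 8 read 13.4 CPM, the highest of its group, where the other 4 livers read 7.38 to 9.48.

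**Figure D3:**
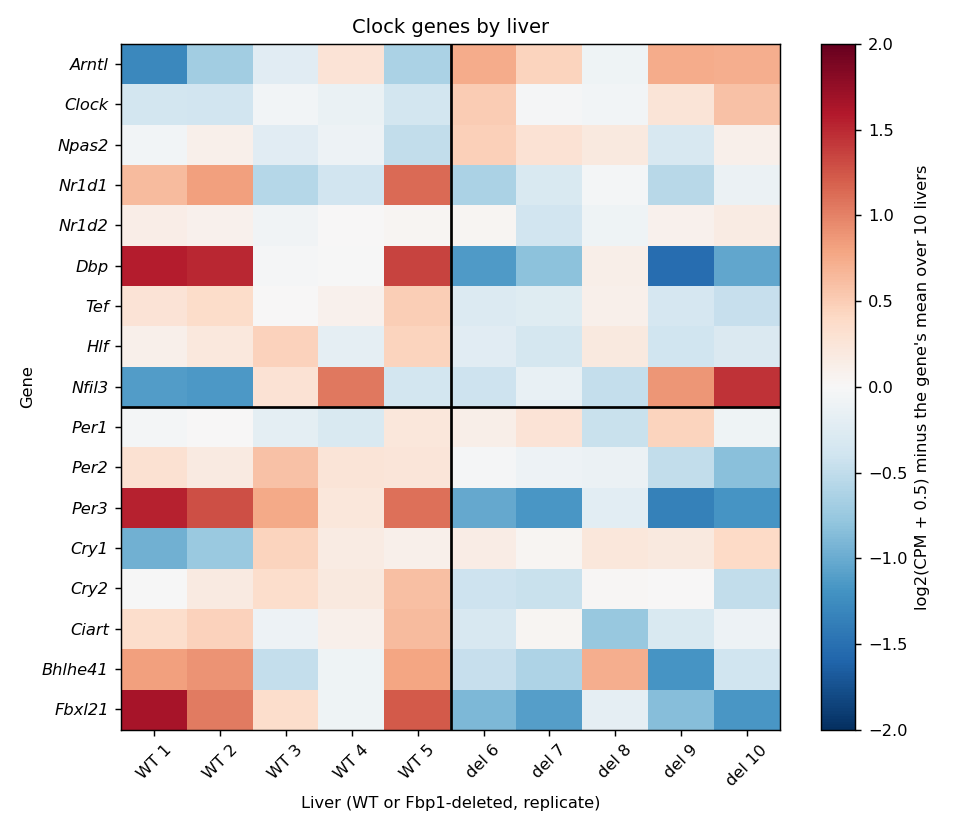
log2(CPM + 0.5) of the 9 members (above the line) and 8 other clock genes (below) in each liver (columns; del is Fbp1-deleted), minus the gene's mean over the 10 livers; red is higher and blue lower. Dbp is red in WT replicates 1, 2 and 5, near white in WT replicates 3 and 4 and Fbp1-deleted replicate 8, and blue in the other Fbp1-deleted livers, while Arntl runs the other way.

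**Figure D4:**
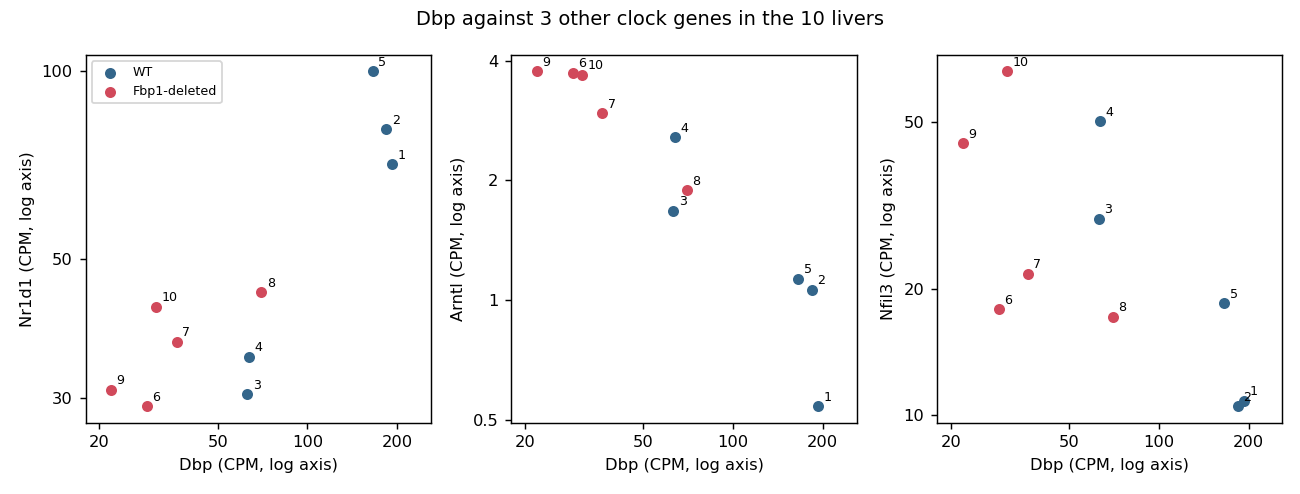
CPM of Nr1d1, Arntl and Nfil3 (y axes, log scale) against CPM of Dbp (x axes, log scale) in the 10 livers, with replicate numbers. Livers with 166 CPM of Dbp or more have at most 1.13 CPM of Arntl, and the livers with less than 40 CPM of Dbp have at least 2.95 CPM of Arntl, while Nfil3 spreads widely at low Dbp.

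Per kilobase of the longest protein-coding transcript, Dbp and Tef led and the 3 clock activators trailed. In WT, Dbp stood at 72.8 ± 35.4 CPM per kilobase and Tef at 55.8 ± 7.73, with overlapping ranges. Nr1d1 followed at 23.3 ± 11.0, Nr1d2 at 14.4 ± 0.751 and Nfil3 at 11.8 ± 8.21, each overlapping the next, and Hlf stood at 9.59 ± 1.71. Nfil3 also overlapped Hlf. Clock at 1.79 ± 0.204, Arntl at 0.469 ± 0.258 and Npas2 at 0.0475 ± 0.0242 formed the lower end, and neighbours there did not overlap. In Fbp1-deleted liver Tef was first at 39.6 ± 6.19 and Dbp next at 20.5 ± 10.2, again with overlapping ranges, then came Nfil3 at 16.5 ± 10.6, Nr1d2 at 13.8 ± 1.94 and Nr1d1 at 13.5 ± 2.44. Hlf (7.14 ± 1.30), Clock (2.61 ± 0.533), Arntl (1.08 ± 0.272) and Npas2 (0.0878 ± 0.0394) kept the lower places.

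The other genes of the clock loop gave the setting. Of 21 listed genes 20 were tested, 3 rose and 6 fell, with a median change of -0.16. Over all genes tested 10.6% rose and 10% fell. Among the repressors driven by ARNTL and CLOCK, Per3 fell from 68.9 ± 22.5 to 17.2 ± 6.39 CPM (-1.998, SE 0.28, adjusted p = 0.00102, edgeR), Per2 by 0.62 on the log2 scale (SE 0.15), Cry2 by 0.53 (SE 0.14) and Ciart by 0.59 (SE 0.16). Per1 stood at 0.15 (SE 0.15, adjusted p = 0.537) and Cry1, a joint target of E-box and RORE, at 0.32 (SE 0.25, adjusted p = 0.379). The call of Ciart depended on WT replicates 2 and 5 and on Fbp1-deleted replicates 6 and 9, since removing any one of them gave an adjusted p from 0.0529 to 0.0569. That of Cry2 depended on Fbp1-deleted replicate 6 (0.0549). Fbxl21, an F-box gene of CRY turnover, fell by 2.11 on the log2 scale (SE 0.37), while Fbxw11, Btrc and Csnk1d, of PER turnover, rose by 0.43, 0.52 and 0.32. Fbxw11 and Btrc kept their calls with each library left out, while Csnk1d (adjusted p = 0.0424, edgeR) lost its call without any one of WT replicates 1, 2 and 5 and Fbp1-deleted replicates 6, 7, 9 and 10 (0.0636 to 0.111). It also lost it with upper quartile factors, library totals or no low-count filter (0.0686 to 0.108). Timeless fell by 0.53 on the log2 scale. Rora, which encodes a ROR receptor that shares the RORE with the REV-ERBs, stood at -0.13 (SE 0.11, adjusted p = 0.418).

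Output genes of each limb were listed from background knowledge, but with earlier results of these data known, and the lists share members with the loop. Their counts describe the listed genes and are no independent readout of a limb. Of 12 genes with E-box control, 6 fell and 1 rose (median change -0.60), against 10% lower and 10.6% higher over all genes tested. Usp2, a deubiquitinase gene, fell from 79.7 ± 3.05 to 32.4 ± 5.64 CPM (-1.30, SE 0.11, adjusted p = 1.12e-05, edgeR) and Wee1, a kinase of the cell cycle, by 0.93 on the log2 scale (SE 0.23). Gys2, the liver glycogen synthase, went the other way, at 1.30 (SE 0.18). Unlike Dbp, Usp2 separated the groups fully, with WT livers between 75.5 and 82.9 CPM and Fbp1-deleted livers between 27.4 and 41.9.

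Of 8 genes that REV-ERB or ROR proteins are known to bind or regulate, 5 rose and 1 fell (median change 1.92). Over all genes tested 10.6% rose and 10% fell. This list too was drawn with earlier results of these data known, so its counts do not measure REV-ERB activity. Insig2, which holds back sterol synthesis, rose from 63.8 ± 10.8 to 304 ± 85.7 CPM (2.25, SE 0.21, adjusted p = 3.48e-05, edgeR). Elovl3, a fatty acid elongase gene, rose by 1.59 (SE 0.28) from a low level of 1.57 ± 0.519 CPM, and Ppargc1a, G6pc and Cyp8b1, which also answer to hormones and nutrients, rose by 2.67, 2.81 and 2.67. The vasopressin receptor gene Avpr1a fell by 1.03 on the log2 scale (SE 0.17).

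Of 11 listed targets of the PAR bZIP factors, which serve detoxification and haem synthesis, 2 fell and 1 rose (median change -0.07). With 10% lower and 10.6% higher over all genes tested, so few calls are not a result about the list. Nr1i3, the xenobiotic receptor CAR, fell from 642 ± 99.2 to 306 ± 63.9 CPM (-1.07, SE 0.15, adjusted p = 0.000478, edgeR) and Cyp2a5 from 2172 ± 777 to 604 ± 87.1 CPM (-1.85, SE 0.24). Cyp2b10, known as a target of CAR, rose by 1.57 (SE 0.48, adjusted p = 0.0462), a call lost without any one of WT replicates 1, 2 and 5 and Fbp1-deleted replicates 6, 7, 9 and 10 (adjusted p between 0.0715 and 0.105) or with low-count genes kept in the fit (0.116). Of 6 corepressor genes through which REV-ERB proteins act, Tbl1xr1 fell (-0.71, SE 0.13, adjusted p = 0.00232, edgeR) and 5 did not pass. That is a smaller share than the 20.6% called over all genes tested.

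The genes most like 3 of the members over the 10 livers were sought by Pearson's r of log2 CPM, as a description without a test. For Arntl they were Glyr1 (r = 0.988), Ddx21 (0.988) and Iars (0.982). For Nr1d1 they included Tbcel (0.942) and Sgk2 (0.936), and for Dbp they were Nr2f2 (0.986), Ubtf (0.980) and Zfyve21 (0.980). Nr2f2 stood at -0.66 (SE 0.14) where Dbp stood at -1.83, Glyr1 at 0.30 (SE 0.11) where Arntl stood at 1.20, and Sgk2 at -0.72 (SE 0.22) where Nr1d1 stood at -0.79. The livers share genotype within a group, so these values describe likeness over both groups at once.

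**Figure D5:**
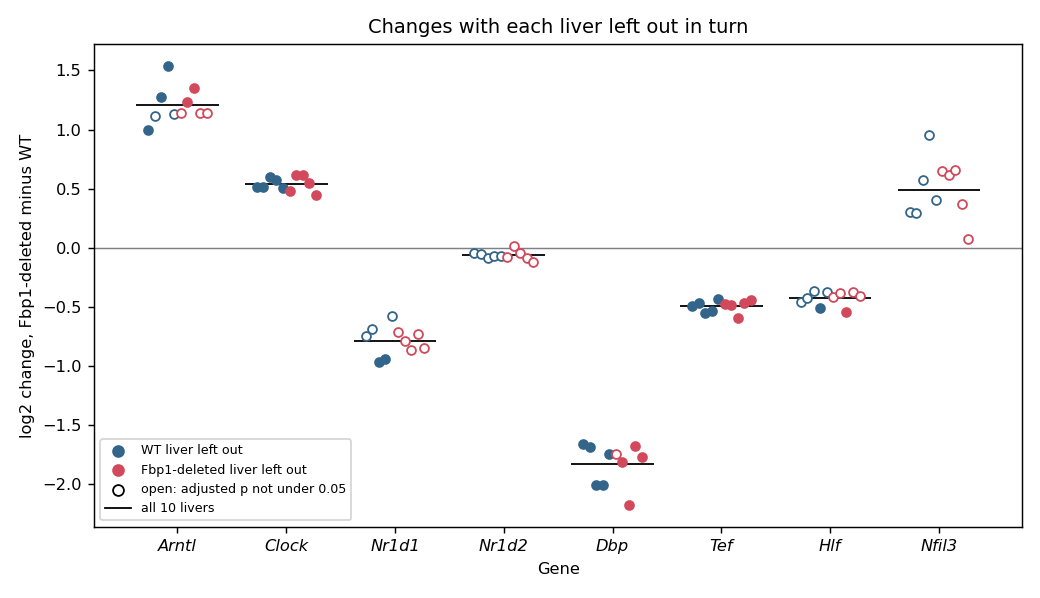
log2 change, Fbp1-deleted minus WT, of the 8 tested members with each liver left out in turn (points, coloured by the group of the liver left out; open where adjusted p was not under 0.05, edgeR) and with all 10 livers (lines). Clock and Tef stay filled throughout, and Arntl is open in 5 of its 10 fits.

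Markers of other liver cells also differed between the groups, and their part in the results above was not tested. In bulk tissue, fewer cells of a type and less RNA per cell cannot be told apart. Of 8 Kupffer cell markers 5 fell, against 10% of all genes tested. The 8 markers summed to 268 to 365 CPM in WT and 193 to 291 CPM in Fbp1-deleted liver. Of 9 tested leukocyte markers only Cd79a fell, near the 10% of all genes tested, and the sum was 18.6 to 23.7 against 9.42 to 14.9 CPM. Endothelial markers summed to 258 to 295 against 181 to 281 CPM and stellate cell markers to 166 to 246 against 219 to 297 CPM, with Lyve1 and Dcn higher. Cholangiocyte markers summed to 16.5 to 28.9 against 12.9 to 22.2 CPM. The defining hepatocyte transcripts were abundant in every liver (sum of 8 markers 53581 CPM or more), with Tat, Tdo2 and Cps1 higher in Fbp1-deleted liver, and Myh4 of muscle was at 0 in all libraries. Mitochondrial transcripts took 4.24% to 6.47% of counts in WT and 4.77% to 5.72% in Fbp1-deleted libraries.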

How the data were processed

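Liver RNA of 5 WT and 5 Fbp1-deleted mice was compared; group and replicate came from the titles, and replicate numbers are not shared between groups. The authors deposited estimated counts per gene, whole numbers in all cells; per the submitters' processing notes Salmon and GRCm38 were used, with versions not given in the sources used here. Per the series' design text, STAR, featureCounts and DESeq2 were also used. Per the labels' protocols, the mRNA library does not keep strand. Salmon assigns reads of similar transcripts by a statistical model, which adds error for paralogs and overlapping genes. Symbols came from GENCODE M21, with 52175 of 53392 identifiers matched including the version, 1180 without it and 37 unmatched.

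The test was edgeR's robust quasi-likelihood F test (version 4.0.16 under R 4.3.3) with group as the one term, after filterByExpr and TMM scaling. SE is the fitted log2 change over the square root of its F statistic. Alternatives used limma 3.58.1, DESeq2 1.42.0, other scalings and filters, an adjusted p of 0.01 and each library left out; the fits were tested on simulated data. The genes named were the 9 members, Fbp1, the called genes of the pathway lists (at most 8 per list) and the 3 genes most like Arntl, Nr1d1 and Dbp whose mean log2 CPM reached 1 (log2 CPM with a prior count of 2, provisional names left out). Named outside that rule, after their values were seen, were Csnk1d, listed genes that did not pass, overlapping genes and markers. Members and lists were chosen with earlier results of these data known. Replicates are separate samples by their labels, described as biological by the design text; counts of any 2 libraries of a group differed by a chi-square of at least 14.2 per degree of freedom. Single results for some genes within these rules are not reported here.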

Additional observations from a re-analysis of the deposited data

Results flagged for a closer look

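In 5 of the groups of 5 livers checked for the named genes, 1 liver stood apart, its gap to the nearest other liver exceeding 71% of the group's whole range, and in each case it was Fbp1-deleted replicate 8 as the highest value. With 80 groups checked, chance alone would flag about 1 in 20 if the groups were independent. The 5 flags all fell on the same liver and the same side, so they cannot be taken as independent. Their count therefore cannot be weighed against that rate. Hlf read 53.0 CPM there, against 35.0 to 39.5 in the other Fbp1-deleted livers. Per3 read 28.5 CPM, against 12.7 to 16.0. Fbxl21 read 2.13 CPM, against 0.827 to 1.15. Nr2f2 read 29.8 CPM, against 21.2 to 22.9, and Ubtf 76.9 CPM, against 60.4 to 65.0. Both were named for their likeness to Dbp over these same livers, so their flags add no separate evidence.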

How the results depend on the processing

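No paired analysis was possible because the 2 groups share no replicate numbers. Besides leaving out libraries, 9 settings were run. With adjusted p under 0.01, 678 genes rose and 633 fell, 0 members rose and 0 fell, 0 loop genes rose and 2 fell, 2 E-box genes fell and 0 PAR bZIP targets rose. DESeq2 called 4 members lower. PAR bZIP targets called lower were 4 with upper quartile factors, library totals, the stricter filter or DESeq2, and 0 rose without a filter; library totals called 2 corepressors lower.

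Leaving out each library gave 1066 to 2060 genes higher and 1019 to 1858 lower (fewest without Fbp1-deleted replicates 9 and 6), 1 to 2 members higher and 1 to 4 lower (1 without Fbp1-deleted replicate 6, 4 without WT replicate 4), 0 to 1 PAR bZIP targets higher and 1 to 2 corepressors lower (2 without Fbp1-deleted replicate 7). Loop genes called ranged from 2 to 3 higher and 4 to 7 lower. The change of Nr1d2 ranged from -0.12 to 0.018, with its sign reversed without Fbp1-deleted replicate 7; the other 7 tested members kept their direction throughout. Depth limits Npas2 and Arntl most.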

Other observations

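Ratios of CPM inside a library need no scaling between libraries. The ratio of Dbp to Arntl was 356, 173, 37.5, 24.8 and 146 in WT replicates 1 to 5 and 7.76, 12.3, 37.1, 5.84 and 8.40 in Fbp1-deleted replicates 6 to 10. The ratio of Nr1d1 to Nr1d2 was 0.989, 1.16, 0.487, 0.530 and 1.49 in WT and 0.434, 0.736, 0.716, 0.445 and 0.570 in Fbp1-deleted liver. The ratio of Dbp to Tef ran from 0.293 to 0.774 in WT and from 0.136 to 0.318 in Fbp1-deleted liver. In all 3 ratios WT replicates 3 and 4 held the lowest pair of WT values, and these were not tested.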
